A study of Mus musculus with 14 samples.

Results

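At day 3 of overload the mouse plantaris muscle held more transcript of dividing cells, of collagen matrix, of phagocytic macrophages and of young muscle fibres than at day 1. Transcripts of neutrophils, of the interferon response, of early stress responses and of energy metabolism were lower at day 3. The comparison sets the arrays labelled day 3 against those labelled day 1, 4 of the 14 arrays of the series, and covers all 19938 genes whose probe set carries exactly 1 gene symbol. The plantaris, a calf muscle that flexes the foot, was overloaded by synergist ablation, an operation that takes away the neighbouring muscles with the same task. The animals were male C57BL/6J mice aged 5 months, with no mutation or drug named. Each day had 1 pool of right and 1 pool of left plantaris muscles, every pool holding muscle of 6 animals. The groups compared are day 3 (1 right pool and 1 left pool) and day 1 (1 right pool and 1 left pool), and the pools of days 0, 5, 7, 10 and 14 enter the estimate of spread and are shown for context.

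What limits these groups as a model is the pooling and the lack of a sham-operated group among the samples, so effects of surgery, of time and of load cannot be told apart. Whether both legs of an animal went into a day's pools is not stated in the labels. The p-values thus rest on the spread between pools, part of which may be technical, and say nothing of the spread between animals. RNA was read on Affymetrix Mouse Gene 1.0 ST arrays, whose probes lie along the whole length of a transcript. Array medians lay between 242.8 and 254.9 intensity units. All 5 genes used to check the tissue (Acta1, Ckm, Myh4, Mylpf and Tnnt3, of the contractile apparatus and energy supply of fast fibres) lay between 12.19 and 14.32 log2 intensity in the 4 pools of days 3 and 1. The right and left pools differed by a median of 0.0916 log2 units at day 3 and 0.102 at day 1, and 44 genes at day 3 and 384 genes at day 1 differed by more than 2-fold between the pools. Hepatocyte transcripts such as Alb, the gene of albumin, were present in every pool at uneven levels, with summed intensities over 20 genes of 26930 and 46610 in the right and left pools of day 3, against 96630 and 29510 at day 1.

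A muscle put under sudden load first goes through a phase of damage and inflammation, in which neutrophils arrive early and monocytes turn into macrophages. Macrophages clear debris and release signals to the resident stem cells of muscle, the satellite cells, which divide, express the myogenic regulators and fuse into fibres. Fibroblasts and fibro-adipogenic progenitors divide in the same period and lay down the collagen matrix. In whole muscle a fall of a transcript may mean fewer cells that carry it or less of it per cell, and the arrays cannot tell these apart.

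Expression differed between day 3 and day 1 in 6920 of 19938 genes (34.7%), by limma with 1 mean per day and Benjamini-Hochberg adjusted p under 0.05. Of all genes, 4284 (21.5%) rose and 2636 (13.2%) fell. Changes past 2-fold were fewer, with 405 genes higher (2.03%) and 309 lower (1.55%), and past 4-fold there were 41 higher and 22 lower. In 6919 of the 6920 called genes the pools of day 3 did not overlap those of day 1. A call with 2 pools at each day nearly requires this, so it is no separate support for the calls. The median difference over all genes was 0.081 on the log2 scale, and the median size of a called change was 0.454. Levels below are log2 intensity, with the right pool before the left pool, and a difference is the day 3 mean minus the day 1 mean ± SE from the fit (2 pools at each day).

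**Figure D1:**
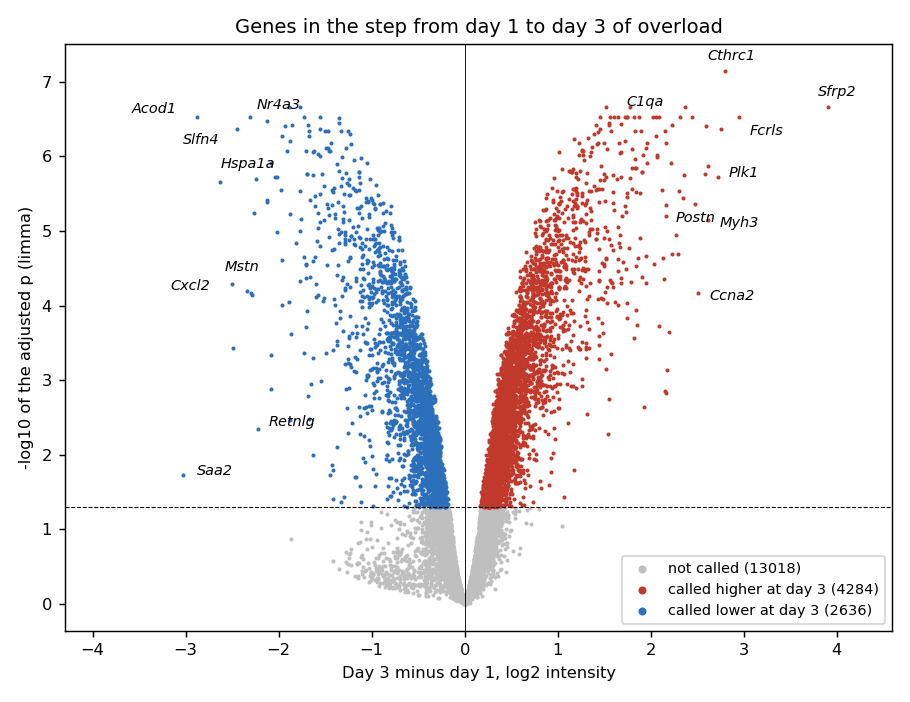
Each point is 1 of 19938 genes, placed by its difference (day 3 minus day 1, log2 intensity) and by -log10 of limma's adjusted p. Red points are the 4284 genes called higher at day 3 and blue points the 2636 called lower, and the dashed line marks adjusted p = 0.05. Sfrp2 stands alone at the right edge with a difference of 3.91, and Saa2, at -3.03, has the lowest difference and an adjusted p of 0.0186.

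The largest rise belonged to Sfrp2, a secreted protein that binds Wnt signals and is made by fibroblasts. It had 11.71 and 11.49 in the day 3 pools, against 7.6 and 7.78 in the day 1 pools (3.91 ± 0.16, limma adjusted p = 2.16e-07). Both day 3 pools lay far above both day 1 pools, and also above the day 0 pools at 8.09 and 8.22. After it came Fcrls (2.95 ± 0.14), an Fc receptor-like gene of mouse macrophages and microglia, Cthrc1 (2.80 ± 0.09), a collagen triple helix repeat protein of active fibroblasts, and Lrrc17 (2.76 ± 0.14), a leucine-rich repeat protein. Myh3 and Mymk (muscle development), Plk1, Anln, Cdk1, Ccna2 and Prc1 (cell division), P4ha3 and Postn (matrix), Casq2 (calcium storage) and Npl (sialic acid breakdown) made up the rest of the 15 largest rises, between 2.35 and 2.72. At the other end were Acod1 (-2.88 ± 0.13), the itaconate-making enzyme of activated myeloid cells, the chemokines Cxcl2 (-2.50 ± 0.28) and Cxcl3 (-2.30 ± 0.26), and Slfn4 (-2.45 ± 0.13), a Schlafen gene of myeloid cells.

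Transcripts of cell division had the highest share of members called higher among the 52 lists. Of 45 mitosis genes measured, 44 rose and 1 fell, where 21.5% of all genes rose and 13.2% fell, and 42 of the 44 rose past 2-fold. Their median difference was 1.69, against 0.081 over all genes. Plk1, a kinase that drives entry into and passage through mitosis, had 10.49 and 10.70 in the day 3 pools, against 8.06 and 7.69 in the day 1 pools (difference 2.72 ± 0.18, 6.59-fold, limma adjusted p = 1.89e-06). Both day 3 pools lay above both day 1 pools, whose levels were near those of day 0 at 7.89 and 7.39. Cdk1, the kinase at the centre of the mitotic switch, had 11.01 and 10.99 at day 3, against 8.55 and 8.29 at day 1 (2.58 ± 0.17). Its cyclin partner Ccna2 rose by 2.51 ± 0.29, and its day 1 pools stood apart from each other at 8.85 and 7.91. Anln (2.62 ± 0.17), an actin-binding protein of the cleavage furrow, and Prc1 (2.48 ± 0.19), which bundles microtubules of the spindle midzone, act at cell separation.

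The proliferation antigen Mki67 had 10.55 and 10.63 at day 3, against 9.24 and 8.09 at day 1 (1.93 ± 0.38). Its groups did not overlap, but the right pool of day 1 lay well above the left. The same tilt ran through the list: mitosis genes were higher in the right than in the left pool of day 1 by a median of 0.40, and lower by 0.09 at day 3. The median step was 1.42 between right pools and 1.94 between left pools. Hepatocyte and marrow granule genes were also higher in that right pool, and their part in the tilt was not tested. The mitosis gene that fell was Pttg1, securin, which guards sister chromatid separation (-0.38 ± 0.08). Its levels were 9.66 and 9.59 at day 3, against 10.01 and 9.99 at day 1.

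The promoters of 2 of the leading mitosis genes are shown because they carry the paired letters CCAAT and TTTGAA close to the start. Many cell cycle promoters hold a CCAAT box, bound by NF-Y, next to a cell cycle homology region, whose core reads TTTGAA or TTCGAA. The sequences run 5′ to 3′ from 250 bases before to 50 bases after the transcript start, from RefSeq on GRCm38.p6, and capitals mark matches on either strand, so that a CCAAT of the other strand reads ATTGG. Plk1 lies at chr7:122159185-122159484 on the plus strand and Cdk1 at chr10:69352863-69353162 on the minus strand.
Plk1: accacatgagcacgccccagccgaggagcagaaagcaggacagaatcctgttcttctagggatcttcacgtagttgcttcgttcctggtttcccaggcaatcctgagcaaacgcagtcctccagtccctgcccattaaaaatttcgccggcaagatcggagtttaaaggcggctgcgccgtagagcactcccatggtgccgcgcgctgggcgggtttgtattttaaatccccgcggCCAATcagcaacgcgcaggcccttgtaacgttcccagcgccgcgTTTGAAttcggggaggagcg
Cdk1: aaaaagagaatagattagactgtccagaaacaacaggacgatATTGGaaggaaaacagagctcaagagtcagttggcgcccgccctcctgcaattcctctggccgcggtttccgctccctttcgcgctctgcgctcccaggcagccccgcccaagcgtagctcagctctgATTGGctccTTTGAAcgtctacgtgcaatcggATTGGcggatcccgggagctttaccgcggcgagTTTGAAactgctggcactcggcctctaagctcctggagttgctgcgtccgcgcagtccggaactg
Plk1 held 1 CCAAT and 1 TTTGAA, and Cdk1 held 3 CCAAT and 2 TTTGAA matches. Anln, which rose more than Cdk1 and is not shown, held 0 CCAAT and 2 TTTGAA matches. Of the 45 mitosis genes, 39 matched the promoter table, with 41 promoters. CCAAT was found in 75.6% of these 41, against 37.4% of 32851 mouse promoters of the same length. TTTGAA was found in 75.6%, against 17.9%, and TTCGAA in 9.76%, against 1.56%. CCAAT together with either core occurred in 29 of the 41 (70.7%), against 7.52% of all promoters. A match is a description of letters in this window, not evidence of binding.

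DNA replication and nucleotide supply moved in the same direction by less. Of 41 genes measured 37 rose and 0 fell, with a median of 0.80, and 13 passed 2-fold. Rrm2, the regulated subunit of the enzyme that makes deoxyribonucleotides, had 11.07 and 11.28 at day 3, against 9.61 and 9.03 at day 1 (1.85 ± 0.24, limma adjusted p = 0.000185). Tyms, which makes thymidylate, rose by 1.44 ± 0.10, and Pole, the catalytic subunit of the leading strand polymerase, by 1.26 ± 0.18. The E2F letters TTTCCCGC or TTTGGCGC, searched on both strands, lay in 28.2% of 39 promoters of these genes, against 1.56% of all promoters. The promoters of Rrm2, Tyms and Tk1 held 0 matches in this window. Cell cycle inhibitors and p53 targets mostly moved the other way. Of 18 measured 10 fell and 2 rose (median -0.35), and Cdkn1a and Bax of this list were not measured. The members with the largest falls were Gadd45g (-1.40 ± 0.10), Btg2 (-1.33 ± 0.09) and Gadd45a (-1.20 ± 0.08), which respond to growth and damage signals. Cdkn2c, an inhibitor of cyclin D kinases, rose by 0.90 ± 0.13.

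**Figure D2:**
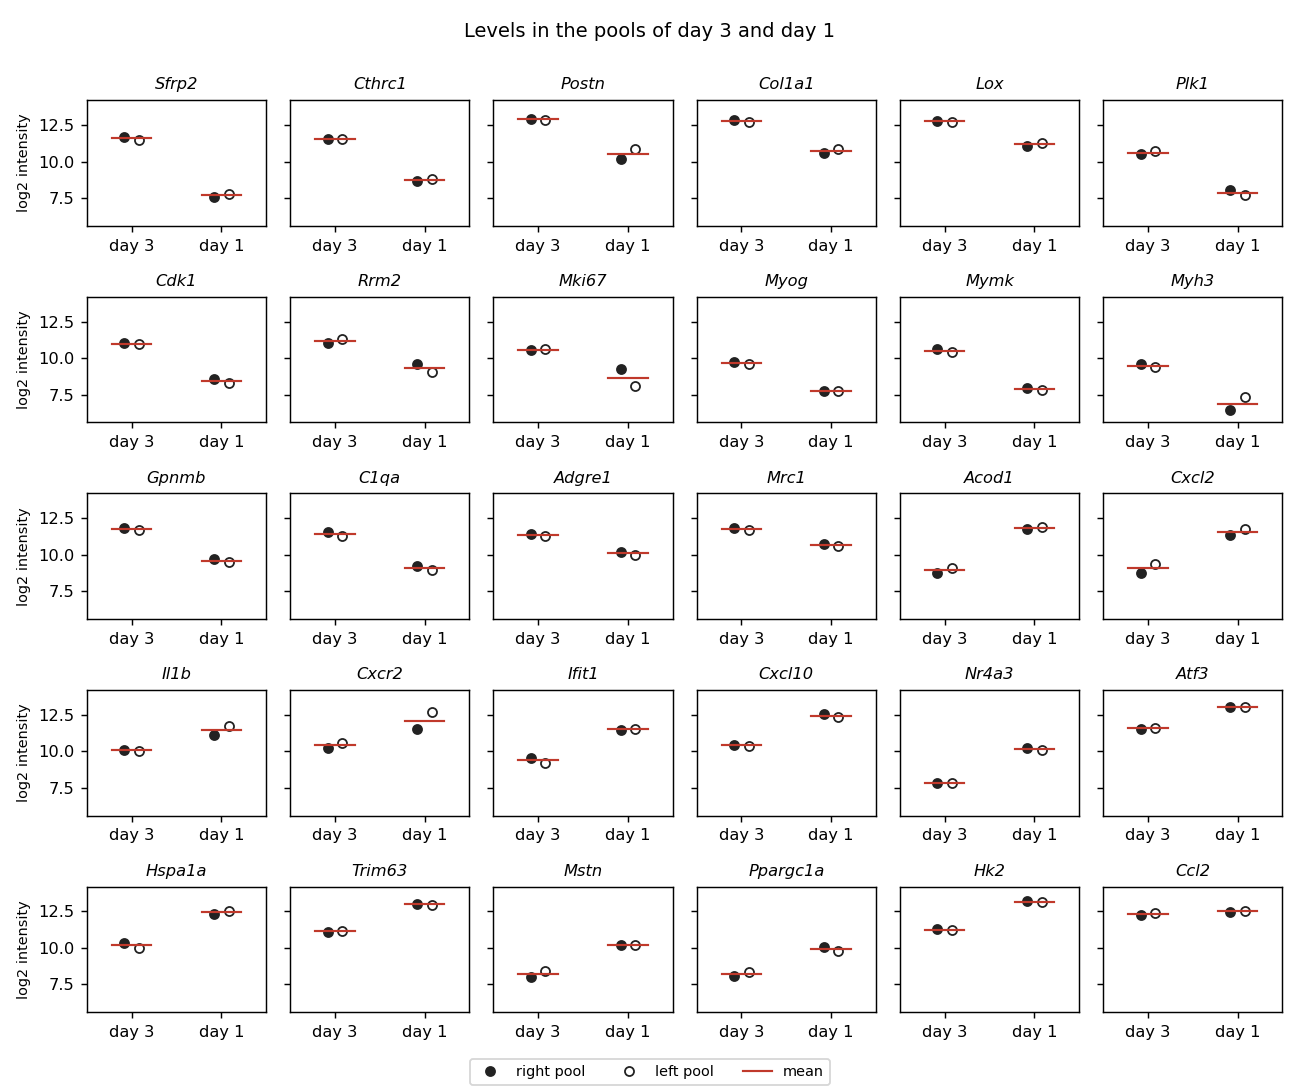
Levels (log2 intensity) of 30 genes, with day 3 at the left and day 1 at the right of each panel, filled circles for right pools, open circles for left pools and a red bar for the mean of both. The pools of a day lie close together for most genes, with Mki67, Cxcr2 and Myh3 wider apart at day 1, and Ccl2 is the one panel whose difference was not called.

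Collagen and its processing machinery rose nearly as a block. Of 21 collagen chains 19 rose and 0 fell (median 1.21), 12 of them past 2-fold. Col1a1, a chain of fibrillar collagen I, had 12.88 and 12.69 at day 3, against 10.62 and 10.84 at day 1 (2.06 ± 0.09, 4.16-fold, limma adjusted p = 2.94e-07). The day 3 pools lay above both the day 1 and the day 0 pools. The day 0 pools had 10.90 and 10.73. Col1a2 (1.87 ± 0.09) and Col3a1 (1.68 ± 0.08), the other main fibrillar chains, followed. Of 18 genes of collagen processing and cross-linking 16 rose and 1 fell. P4ha3, a prolyl hydroxylase subunit, had 9.71 and 9.82 at day 3, against 7.37 and 7.44 at day 1 (2.37 ± 0.09). Lox, the lysyl oxidase that cross-links collagen, rose by 1.57 ± 0.08 with levels of 12.81 and 12.72 at day 3, against 11.10 and 11.29 at day 1. Its day 0 pools had 8.82 and 8.66, so both days stood above that level. The family member Loxl3 rose by 1.66 ± 0.09. The gene that fell was P4ha1 (-0.31 ± 0.08), a hydroxylase subunit induced by low oxygen, and its call was lost without the left pool of day 1 or the right pool of day 3 (differences of -0.23 and -0.29).

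Of 39 matrix glycoproteins and proteoglycans 28 rose and 2 fell (median 0.77). Postn, periostin, a matricellular protein of healing tissue, had 12.95 and 12.84 at day 3, against 10.20 and 10.89 at day 1 (2.35 ± 0.17). Thbs2, a matricellular thrombospondin, rose by 2.23 ± 0.11 and Tnc, tenascin C, by 1.31 ± 0.15. The related Thbs1 fell, at -0.53 ± 0.14, with 12.83 and 12.92 at day 3, against 13.23 and 13.58 at day 1, a call lost without the left pool of day 1 or the right pool of day 3 (-0.36 and -0.49), when 0 genes of the list were lower. Proteases and inhibitors were split, with 9 of 24 higher and 7 lower. Mmp12, an elastase of macrophages (1.35 ± 0.15), Mmp14, a membrane-bound collagenase (1.28 ± 0.08), and the inhibitor Timp2 (1.18 ± 0.06) rose, and Mmp3, stromelysin, fell (-1.61 ± 0.16). Of 23 markers of fibroblasts and fibro-adipogenic progenitors 14 rose and 0 fell, among them the surface protein Thy1 (1.83 ± 0.10) and the tendon factor Scx (1.47 ± 0.09). Endothelial markers rose in 12 of 24 and fell in 0, led by the apelin receptor Aplnr (1.80 ± 0.10). Its ligand gene Apln had 11.63 and 11.59 at day 3, against 11.57 and 11.67 at day 1, a difference of -0.01 ± 0.12 that did not pass the test. Smooth muscle and pericyte markers rose in 5 of 13 and fell in 1. Pmp22, a myelin protein also made by fibroblasts, rose by 0.81 ± 0.08. Schwann cell and myelin genes fell in 0 of 12 and rose in 3 (25.0%, near the 21.5% over all genes). That count was 1 without the left pool of day 1 or without either pool of day 3, and the smooth muscle count lower was 0 when any pool but the left one of day 1 was left out.

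**Figure D3:**
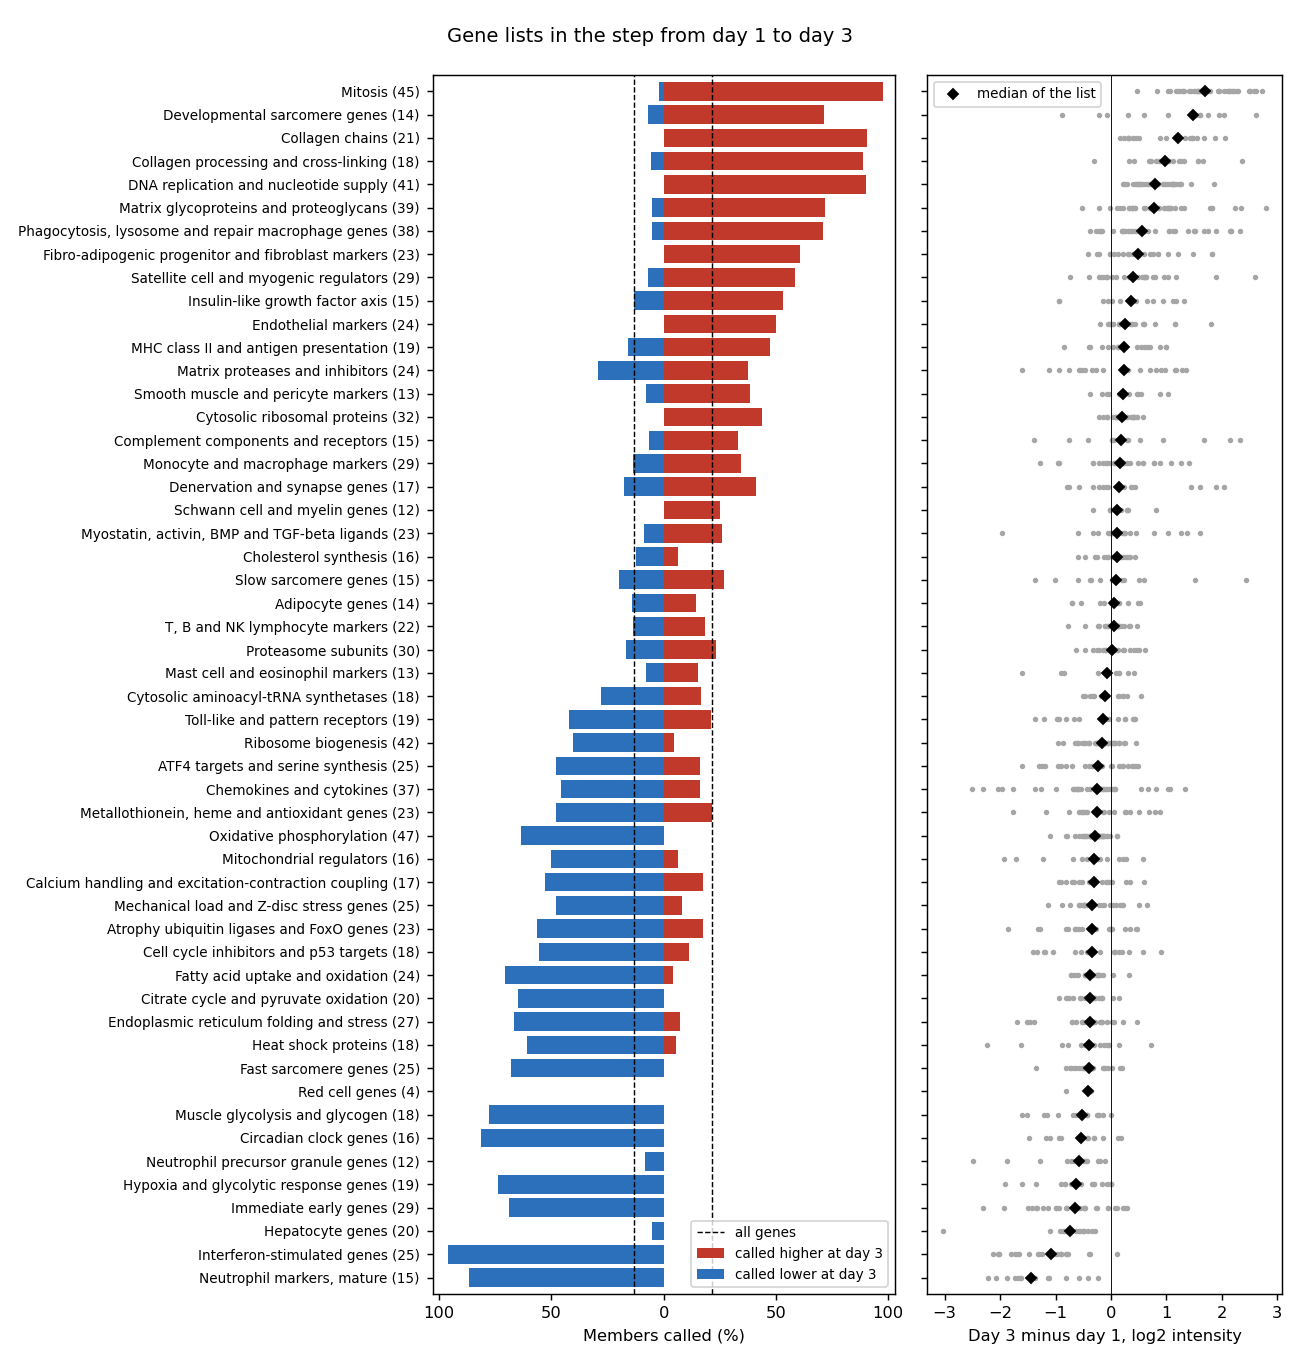
Left, the percentage of measured members of each of 52 gene lists called higher (red) or lower (blue) at day 3 than at day 1, with the numbers of members in brackets and dashed lines at the shares over all genes (21.5% and 13.2%). Right, the difference of each member (grey) and the median of the list (black). Mitosis, developmental sarcomere and collagen genes stand at the top, and mature neutrophil and interferon-stimulated genes at the bottom.

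Leukocyte transcripts turned over between the days. Mature neutrophil markers fell in 13 of 15 and rose in 0 (median -1.45). Cxcr2, the chemokine receptor that draws neutrophils into tissue, had 10.23 and 10.59 at day 3, against 11.50 and 12.66 at day 1 (-1.67 ± 0.35, limma adjusted p = 0.0033). The left pool of day 1 stood highest, and both day 3 pools were still above the day 0 pools at 7.22 and 6.66. Lcn2, the iron-scavenging lipocalin of neutrophil granules, had a difference of -2.08 ± 0.37 and the surface antigen Ly6g of -1.88 ± 0.39. Retnlg, a resistin-like gene of neutrophils, had 8.93 and 9.65 at day 3, against 10.63 and 12.39 at day 1 (-2.22 ± 0.49), a call lost with only the arrays of days 1 and 3. The calprotectin genes S100a8 (-1.45 ± 0.41) and S100a9 (-1.63 ± 0.41) fell by the fit on all arrays. The S100a8 call was lost under a robust prior or with only the arrays of days 1 and 3. Both calls were lost without the left pool of day 1 (-0.99 and -1.22) or without the right pool of day 3 (-1.12 and -1.36). Without that day 3 pool, the list held 8 lower genes in place of 13.

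Granule genes of neutrophil precursors in marrow did not follow one course in both pools. Of 12 measured 1 fell and 0 rose, and the median step was -1.39 between right pools and 0.16 between left pools. Without the left pool of day 1 the count lower was 8. The member that fell was Chil3, a chitinase-like protein that macrophages also make, with 6.58 and 7.09 at day 3, against 9.49 and 9.15 at day 1 (-2.49 ± 0.37). The list includes Hp, with 10.65 and 10.42 at day 3, against 11.25 and 10.69 at day 1. Like the hepatocyte genes, Hp was higher in the left pool of day 0 than in the right (11.29 against 9.33). The summed intensity of the granule list, Hp included, was 3630 and 5430 at day 3, against 12690 and 5280 at day 1. Hepatocyte genes showed a like unevenness, with a median step of -2.11 between right pools and 0.71 between left pools, and 1 of 20 fell, or 2 without the left pool of day 1. That gene was Saa2, an acute phase serum amyloid, at 5.81 and 5.82 in the day 3 pools, against 9.38 and 8.30 in the day 1 pools (-3.03 ± 0.86, limma adjusted p = 0.0186). Its day 0 pools had 8.0 and 11.27, and the call was lost without the right pool of day 1 (-2.48) or without either pool of day 3 (-3.02 and -3.03). Saa2 and Chil3 both lay in the dimmest of 3 equal classes of genes, and the call of Saa2 was also lost under a robust prior. The part of liver-type RNA in the fall of Saa2 was not tested.

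**Figure D4:**
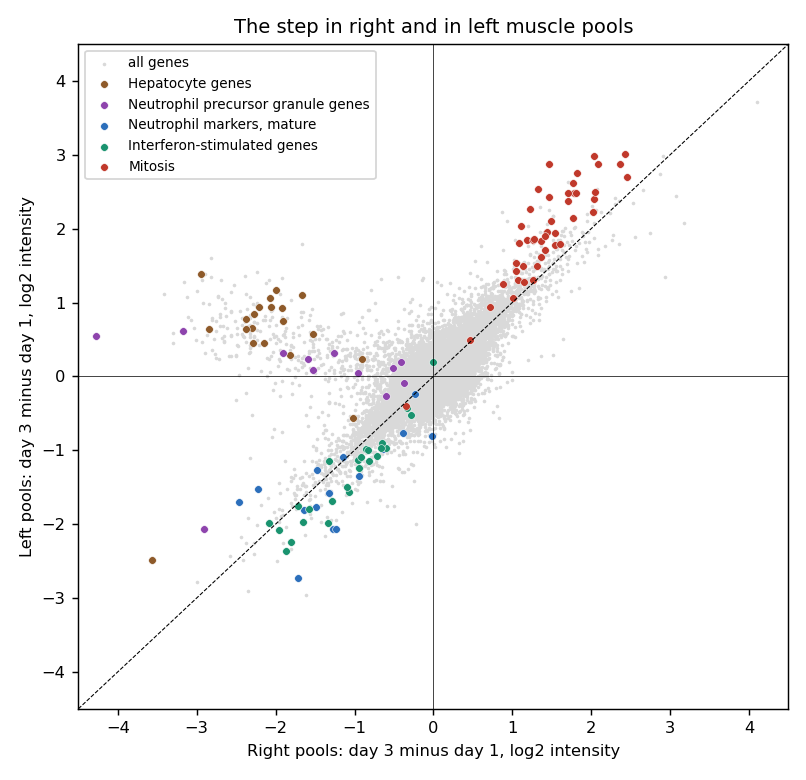
Each grey point is 1 gene, placed by its difference (day 3 minus day 1, log2 intensity) between right pools on the horizontal axis and between left pools on the vertical axis, with the diagonal dashed. Interferon-stimulated and mature neutrophil genes lie in the lower left, mitosis genes in the upper right and mostly above the diagonal, and most hepatocyte and granule genes in the upper left, with Saa2 and Chil3 lower between both.

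More macrophage markers rose than fell. Of 29 monocyte and macrophage markers 10 rose (34.5%, against 21.5% of all genes). The 4 that fell (13.8%) were near the 13.2% over all genes, and the median of the list was 0.17. Its summed intensity was 82950 and 82520 at day 3, against 65300 and 72910 at day 1. Adgre1, a surface receptor that marks mature macrophages in the mouse, had 11.45 and 11.25 at day 3, against 10.21 and 9.97 at day 1 (1.26 ± 0.10, limma adjusted p = 4.23e-06). The fractalkine receptor Cx3cr1 rose by 1.09 ± 0.16 and the membrane protein Ms4a7 by 1.41 ± 0.07, whereas the chemokine receptor Ccr1 fell by 1.28 ± 0.23. Ccr2, the receptor that recruits monocytes, had 11.06 and 11.26 at day 3, against 11.07 and 11.03 at day 1, and 0.11 ± 0.16 did not pass the test. Its ligand gene Ccl2 had 12.25 and 12.40 at day 3, against 12.46 and 12.55 at day 1, a difference of -0.18 ± 0.12 with an adjusted p of 0.269 by limma. Both days lay far above the day 0 pools of Ccl2, at 7.84 and 7.51.

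Genes of phagocytosis, lysosomes and repair macrophages rose in 27 of 38 and fell in 2 (median 0.55), and the count lower was 0 when the right one of the day 1 pools, or the left one of the day 3 pools, was left out. C1qa, a chain of the complement opener C1q that macrophages make, had 11.53 and 11.30 at day 3, against 9.23 and 8.96 at day 1 (2.32 ± 0.10, 4.98-fold, limma adjusted p = 2.94e-07). The day 1 levels were near those of day 0, at 8.88 and 8.96. The partner chains C1qc (2.15 ± 0.11) and C1qb (1.68 ± 0.10) rose with it. Gpnmb, a glycoprotein of lipid-laden macrophages, rose by 2.17 ± 0.17, the phospholipid transfer protein Pltp by 2.16 ± 0.12, and the lipid-sensing receptor Trem2 by 1.75 ± 0.13. Scavenger receptors of tissue macrophages were also higher, with Mrc1 at 1.11 ± 0.09 and Cd163 at 1.05 ± 0.13. Arg1, an enzyme of alternatively activated macrophages, had 11.42 and 11.79 at day 3, against 11.85 and 11.90 at day 1 and 7.37 and 9.17 at day 0, and its difference of -0.27 ± 0.43 did not pass the test. Class II and antigen presentation genes rose in 9 of 19 and fell in 3, with H2-Eb1 at 0.99 ± 0.08, and 1 was lower when any one pool of day 1 or 3 was left out. Complement as a whole rose in 5 of 15 and fell in 1, the terminal component C7 (-1.39 ± 0.17). The complement count lower was 2 without the right pool of day 1 and 3 without the left. Lymphocyte markers had a median of 0.05, with 4 of 22 higher (18.2%) and 3 lower (13.6%), near the 21.5% and 13.2% over all genes. Of the 22, 13 were in the dimmest of 3 equal classes of genes. With 1 pool left out at a time the lymphocyte count higher was 3 and 0 (right and left of day 1), and 2 and 1 (right and left of day 3).

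More chemokine and cytokine genes fell than rose. Of 37 measured 17 fell (45.9%) and 6 rose (16.2%), where 13.2% of all genes fell and 21.5% rose. Their median was -0.25, and 8 of the falls passed 2-fold. Cxcl2, a neutrophil attractant, had 8.78 and 9.36 at day 3, against 11.36 and 11.79 at day 1 (limma adjusted p = 5.2e-05). Il1b, interleukin 1 beta, fell by 1.37 ± 0.19 and Il6, interleukin 6, by 1.26 ± 0.14, the second a gene of the dimmest class. Ccl8, a monocyte chemokine, rose by 1.33 ± 0.14, with 10.18 and 9.80 at day 3, against 8.60 and 8.73 at day 1. Pattern recognition receptors fell in 8 of 19 (42.1%) and rose in 4 (21.1%, near the 21.5% over all genes). The lectin receptors Clec4e (-1.37 ± 0.20) and Clec5a (-1.21 ± 0.26) led the falls, and Tlr7, a sensor of single-stranded RNA, rose by 0.43 ± 0.08. The call of Clec5a was lost with only the arrays of days 1 and 3, and 2 receptors were higher when the right pool of day 3 was left out. Acod1 had 8.78 and 9.10 at day 3, against 11.77 and 11.87 at day 1 (limma adjusted p = 2.94e-07), and 7.74 and 7.81 at day 0.

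The interferon response fell almost as a whole. Of 25 interferon-stimulated genes 24 fell and 0 rose, where 13.2% of all genes fell, and 15 fell past 2-fold (median -1.09). Ifit1, which binds foreign RNA ends, had 9.56 and 9.19 at day 3, against 11.43 and 11.56 at day 1 (-2.12 ± 0.16, limma adjusted p = 3.83e-06). Both day 3 pools were below both day 1 pools and above the day 0 pools at 7.48 and 7.42. Cxcl10, an interferon-induced chemokine, had a difference of -2.04 ± 0.14 and Ifit3 of -2.02 ± 0.17, both called. Ifit3b (-2.63 ± 0.18) and Ifit1bl2 (-2.29 ± 0.26), outside the list, are close relatives of these genes in the dimmest of 3 equal classes of genes, and probes of near-identical copies may read each other. The member that did not pass the test was Bst2, tetherin, at 0.10, singled out after its value was seen. Promoters of Ifit1 and Ifit3 are shown for the letters GAAANNGAA, the core repeat of the interferon-stimulated response element bound by ISGF3, with matches on either strand in capitals. Ifit1 lies at chr19:34640639-34640938 on the plus strand and Ifit3 at chr19:34583279-34583578 on the plus strand, from RefSeq on GRCm38.p6.
Ifit1: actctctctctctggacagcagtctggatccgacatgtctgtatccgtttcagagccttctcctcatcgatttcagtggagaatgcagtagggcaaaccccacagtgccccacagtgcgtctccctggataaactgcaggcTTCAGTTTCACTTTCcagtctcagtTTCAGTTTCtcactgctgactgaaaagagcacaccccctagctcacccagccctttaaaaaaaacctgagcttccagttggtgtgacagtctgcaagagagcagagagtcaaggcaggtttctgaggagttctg
Ifit3: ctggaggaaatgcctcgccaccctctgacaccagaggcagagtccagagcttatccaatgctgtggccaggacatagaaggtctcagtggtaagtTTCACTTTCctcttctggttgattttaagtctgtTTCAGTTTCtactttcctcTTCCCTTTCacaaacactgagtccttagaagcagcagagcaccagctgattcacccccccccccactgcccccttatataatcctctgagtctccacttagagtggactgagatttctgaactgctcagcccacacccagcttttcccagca
Each held 3 matches on the strand opposite to the gene, and 2 of those in Ifit1 overlap. Cxcl10, which fell slightly more than Ifit3 and is not shown, held 1 match. Of the 25 genes, 19 matched the table, with 24 promoters, and 11 of these (45.8%) held the core, against 8.56% of all promoters.

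Early response and stress genes fell as well. Immediate early genes, which switch on within minutes of a stimulus, fell in 20 of 29 and rose in 0 (median -0.65). Nr4a3, an orphan nuclear receptor, had 7.85 and 7.86 at day 3, against 10.22 and 10.11 at day 1 (-2.31 ± 0.10, limma adjusted p = 2.94e-07). Its day 3 pools also lay below the day 0 pools, at 8.60 and 8.36. Its relative Nr4a1 fell by 1.93 ± 0.10 and the stress factor Atf3 by 1.43 ± 0.10. The growth regulator Myc fell by 0.79 ± 0.09, with 11.13 and 11.36 at day 3, against 12.01 and 12.05 at day 1, and 8.20 and 8.14 at day 0. Endoplasmic reticulum folding and stress genes fell in 18 of 27 and rose in 2 (7.41%, against 21.5% of all genes). The stress factor Ddit3 (-1.69 ± 0.11) and the oxidase Ero1a (-1.46 ± 0.12) were in front. Among heat shock proteins 11 of 18 fell and 1 rose. Hspa1a, the inducible chaperone, had 10.36 and 10.02 at day 3, against 12.34 and 12.52 at day 1 (-2.24 ± 0.15). ATF4 targets and serine synthesis genes fell in 12 of 25 and rose in 4 (16.0%, against 21.5% of all genes). The cystine carrier Slc7a11 had a difference of -1.25 ± 0.20. Among metallothionein, heme and antioxidant genes 11 of 23 fell, led by the sulfiredoxin Srxn1 (-1.77 ± 0.07). The 5 that rose (21.7%) were near the 21.5% over all genes, among them Sod3, the extracellular superoxide dismutase (0.89 ± 0.06). Hmox1, heme oxygenase, rose by 0.51 ± 0.09. With the right pool of day 3 left out the count lower of this list was 6. The count of higher ATF4 targets was 2 without either day 1 pool and 1 when the left one of day 3 was left out, and that of endoplasmic reticulum genes was 1 when any one of the 4 pools was left out.

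Genes of ribosome production and ribosomal protein genes parted. Of 42 ribosome biogenesis genes 17 fell and 2 rose (median -0.17), with the helicase Ddx10 (-0.95 ± 0.11) and nucleostemin, Gnl3 (-0.87 ± 0.11), lowest. The count lower was 11 when the right pool of day 1, or that of day 3, was left out, and the count higher was 1 when any one of the 4 pools was. Of 32 cytosolic ribosomal proteins 14 rose and 0 fell (median 0.20), with Rpl13 at 0.57 ± 0.08 (9 probe sets). That count was 8 when either of these pools was left out, and 24 under quantile normalization. Probe sets of ribosomal proteins can also read their many processed pseudogenes. Of 30 proteasome subunits 7 (23.3%) were higher and 5 (16.7%) lower, near the 21.5% and 13.2% over all genes (median 0.02), and 3 were lower without either day 1 pool or without the right pool of day 3.

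Genes of fuel use were mostly lower. Of 18 genes of muscle glycolysis and glycogen 14 fell and 0 rose (median -0.52). Gpd1, a shuttle enzyme of cytosolic redox balance, fell by 1.60 ± 0.19, and Phkg1, the catalytic subunit of phosphorylase kinase, by 1.52 ± 0.18. Hypoxia and glycolytic response genes fell in 14 of 19 and rose in 0. Hk2, the inducible hexokinase, had 11.26 and 11.25 at day 3, against 13.19 and 13.14 at day 1 (-1.91 ± 0.11, 3.76-fold lower, limma adjusted p = 8.55e-07). Its day 3 pools also lay below the day 0 pools, at 11.94 and 11.75. Vegfa, the vessel growth factor, fell by 1.36 ± 0.12.

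Oxidative phosphorylation genes fell in 30 of 47 and rose in 0 (median -0.28), with the muscle cytochrome oxidase subunit Cox7a1 lowest (-1.10 ± 0.15). Of 20 genes of the citrate cycle and pyruvate oxidation 13 fell and 0 rose. Fatty acid uptake and oxidation genes fell in 17 of 24 and rose in 1, with the dehydrogenase Acadm at -0.73 ± 0.09. Without the right pool of day 1 that count lower was 8, and without the right pool of day 3 it was 11. Liver also makes enzymes of fatty acid oxidation, hepatocyte genes were high in the right pool of day 1, and their part in the count was not tested. Ppargc1a, the coactivator that drives mitochondrial genes, had 8.09 and 8.37 at day 3, against 10.06 and 9.82 at day 1 (-1.71 ± 0.17, limma adjusted p = 2.84e-05). The levels of all 4 pools lay below the day 0 pools, at 11.24 and 11.16. Its relative Ppargc1b rose by 0.57 ± 0.08. Among circadian clock genes 13 of 16 fell and 0 rose, with Ciart at -1.47 ± 0.11 and Bhlhe40 at -1.17 ± 0.10, both repressors of the clock. The labels give no hour of collection.

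Contractile genes of adult and young fibres went apart. Of 25 fast sarcomere genes 17 fell and 0 rose (median -0.40), a count of 11 under quantile normalization. Mylk2, the myosin light chain kinase of skeletal muscle, fell by 1.36 ± 0.14 and the M-band protein Myom1 by 0.82 ± 0.14. Acta1, skeletal actin, had 14.23 and 14.19 at day 3, against 14.30 and 14.32 at day 1, near the top of the array's range, and -0.10 ± 0.07 did not pass the test. Of 14 genes listed as developmental sarcomere genes 10 rose and 1 fell (median 1.48). The rises include Chrna1 (2.03 ± 0.10), a receptor subunit of the synapse and not a contractile gene. Myh3, embryonic myosin heavy chain, had 9.59 and 9.38 at day 3, against 6.42 and 7.31 at day 1 (2.62 ± 0.21, 6.14-fold, limma adjusted p = 7.2e-06). Both day 1 pools were also below the day 0 pools, at 7.80 and 7.62. Perinatal Myh8, its neighbour in development, had 9.22 and 8.95 at day 3, against 8.43 and 9.11 at day 1. Those groups overlapped, and the difference of 0.31 ± 0.20 did not pass the test. Tnnt2, the cardiac and embryonic troponin T, rose by 1.95 ± 0.11. The member that fell was Xirp1 (-0.89 ± 0.14), an actin-binding repeat protein of stressed fibres.

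Slow sarcomere genes rose in 4 of 15 (26.7%) and fell in 3 (20.0%), where 21.5% of all genes rose and 13.2% fell. The list includes Casq2, the calsequestrin of slow and cardiac muscle, which stores calcium and is not a sarcomere protein. Casq2 had 9.99 and 10.17 at day 3, against 7.47 and 7.82 at day 1 (2.44 ± 0.11, limma adjusted p = 2.94e-07). Its day 0 pools had 9.43 and 9.32. Tnni1, slow troponin I, rose by 1.52 ± 0.25, with unequal day 1 pools at 9.11 and 8.03. Myl3, a slow and cardiac light chain, fell by 1.37 ± 0.33 and had 8.33 and 8.44 at day 3, against 10.36 and 9.15 at day 1. That call was lost with only the arrays of days 1 and 3, and also without the right pool of day 3, at -1.32, when 1 slow sarcomere gene was lower in all. Calcium handling and coupling genes fell in 9 of 17 and rose in 3 (17.6%, against 21.5% of all genes). The chloride channel Clcn1 had a difference of -0.94 ± 0.16.

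Genes of satellite cells and myogenic regulation rose in 17 of 29 and fell in 2 (median 0.40), or in 1 when the right pool of day 1 was left out. Mymk, myomaker, the membrane protein that lets myoblasts fuse, had 10.65 and 10.39 at day 3, against 7.99 and 7.85 at day 1 (2.60 ± 0.13, 6.06-fold, limma adjusted p = 3.95e-07). Myog, the factor of terminal myoblast differentiation, had 9.74 and 9.58 at day 3, against 7.77 and 7.76 at day 1 (1.89 ± 0.17), and 7.67 and 7.6 at day 0. The satellite cell factor Pax7 rose by 0.75 ± 0.09 and the determination factor Myod1 by 0.61 ± 0.12, and Myf6, the regulator kept in mature fibres, fell by 0.74 ± 0.10. Runx1, a factor of denervated and injured muscle, had 12.09 and 12.14 at day 3, against 12.24 and 12.18 at day 1, and -0.09 ± 0.10 did not pass the test. Denervation and synapse genes rose in 7 of 17 (41.2%) and fell in 3 (17.6%), against 21.5% and 13.2% of all genes. Receptor subunits of the immature synapse, Chrna1 (2.03 ± 0.10) and Chrng (1.44 ± 0.20), and the adhesion molecule Ncam1 (1.60 ± 0.11) rose, and the synaptic kinase Musk fell (-0.79 ± 0.07).

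Growth and wasting signals shifted in both directions. Mstn, myostatin, which limits muscle growth, had 8.0 and 8.43 at day 3, against 10.19 and 10.17 at day 1 (-1.96 ± 0.19, 3.90-fold lower, limma adjusted p = 2.47e-05), and 11.39 and 11.25 at day 0. Its antagonist gene Fst had 9.22 and 9.31 at day 3, against 9.14 and 9.19 at day 1, and 0.10 ± 0.09 did not pass the test. Of 23 ligands and regulators of that family 6 rose (26.1%) and 2 fell (8.7%), against 21.5% and 13.2% of all genes, with Tgfb3 at 1.37 ± 0.08. In the insulin-like growth factor axis 8 of 15 rose and 2 fell (13.3%, near the 13.2% over all genes). Igf2 rose by 1.32 ± 0.09 and the binding proteins Igfbp4 and Igfbp5 by 1.17 ± 0.16 and 1.12 ± 0.07, and the adaptor Irs2 fell by 0.94 ± 0.08. Igf1 had 10.68 in both day 3 pools, against 10.71 and 9.93 in the day 1 pools. Those day 1 pools lay on either side of day 3, and the difference of 0.36 ± 0.22 did not pass the test. Igfbp4 also had unequal day 1 pools, at 10.70 and 10.09. Hepatocyte genes were high in the right pool of day 1, and their part in these levels was not tested.

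Atrophy ubiquitin ligases and FoxO genes fell in 13 of 23 and rose in 4 (17.4%, against 21.5% of all genes). Trim63, the ligase MuRF1, had 11.11 and 11.14 at day 3, against 13.03 and 12.95 at day 1 (-1.86 ± 0.09, 3.64-fold lower, limma adjusted p = 3.78e-07), and 11.31 and 11.13 at day 0. Fbxo32, atrogin-1, fell by 1.32 ± 0.08, with day 3 pools at 11.21 and 11.42, against 12.67 and 12.59 at day 1, and 12.34 and 12.33 at day 0. The related ligase Trim55 rose by 0.47 ± 0.09, and the count higher was 2 when the left pool of day 1, or the right pool of day 3, was left out. Load and Z-disc genes fell in 12 of 25 and rose in 2, with Tnfrsf12a, the TWEAK receptor, at -1.14 ± 0.09 and Ankrd1, a titin-linked stress protein, at -0.56 ± 0.13. Ankrd1 had 13.15 and 13.10 at day 3, against 13.61 and 13.77 at day 1, and 9.20 and 8.89 at day 0.

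The levels on other days place the step within the time course. The step to day 5 shares the day 3 arrays with the comparison above, so its values are given side by side without calls. Myh3 differed by 2.62 ± 0.21 between day 3 and day 1 and by 2.43 ± 0.21 between day 5 and day 3, with 11.80 and 12.02 at day 5. Mymk (2.60 ± 0.13 and then 1.73 ± 0.13), Tnnt2 (1.95 ± 0.11 and then 1.53 ± 0.11) and Igf2 (1.32 ± 0.09 and then 2.11 ± 0.09) also had a large second step. Plk1 (2.72 ± 0.18 and then 0.15 ± 0.18) and C1qa (2.32 ± 0.10 and then 0.03 ± 0.10) had a second step no larger than its error. Among the genes that fell, Cxcr2 had a second difference of -1.74 ± 0.35, Acod1 of -1.02 ± 0.13 and Nr4a3 of -0.13 ± 0.10. Ccl2, which did not pass the test between day 3 and day 1, differed by -0.78 ± 0.12 between day 5 and day 3. Myh8 differed by 1.98 ± 0.20 in that second step.

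**Figure D5:**
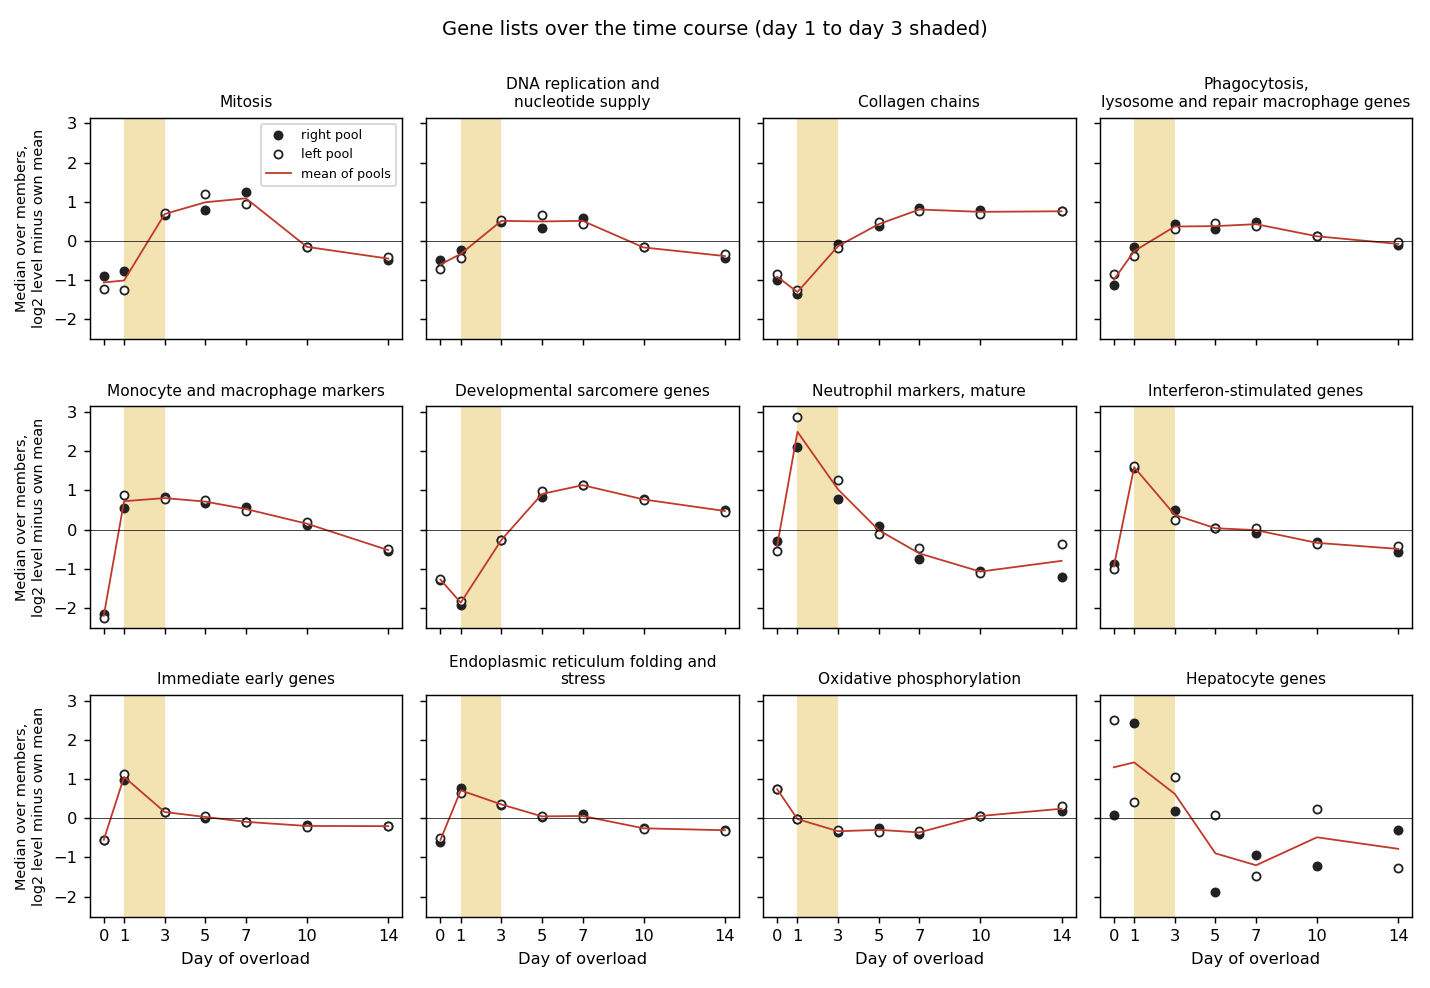
Each panel follows 1 gene list over days 0 to 14, plotting for each pool the median over members of the level minus the member's own mean over all 14 arrays (log2), with filled circles for right pools, open circles for left pools, a red line through their mean and the step from day 1 to day 3 shaded. Mitosis, collagen and developmental sarcomere genes climb in the shaded step, mature neutrophil, interferon-stimulated and immediate early genes drop in it, and the hepatocyte panel shows pools of the same day far apart.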

How the data were processed

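The authors deposited 1 linear intensity for each probe set, made with Partek per the submitters' processing notes, and how probes were summarised and scaled is not given in the sources used here. Labelling used 250 ng of RNA per the labels, which elsewhere give 100 ng. Values ran between 5.9 and 29501.5. Precision is limited by having 2 arrays a day.

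The log2 intensity was taken with no further scaling. Of 35556 probe sets, 21789 carried 1 symbol in the platform annotation, 1621 several and 12146 were not listed. The brightest probe set stood for each of 999 genes with several. limma 3.58.1 (R 4.3.3) fitted 1 mean per day to all 14 arrays (7 residual degrees of freedom), tested day 3 minus day 1 two-sided, and adjusted p by Benjamini-Hochberg. Tested on simulated data for this comparison (19938 genes), it recovered 70% of genes changed by 1.5-fold and 100% of those changed by 2-fold, making 2 false calls. The simulated noise was independent between genes, with the same spread on all days, and few genes were changed. Shifts shared by many genes of a pool were not simulated, so these false calls are no estimate for the real arrays.

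The 52 lists held 1183 measured members and share some genes. They and the comparison were chosen with earlier results of these data known. Genes were named by rule: the 15 largest rises and falls with pools that do not overlap, up to 4 members a list, and a panel. Lists are described by counts, with no set test. Promoter sequences are those of RefSeq (GRCm38.p6). The alternatives tried were other scalings, filters, priors, thresholds and samples, and the closing section gives their effect.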

Additional observations from a re-analysis of the deposited data

How the results depend on the processing

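The number of genes called stood between 6537 and 7130 under equal array medians, quantile normalization, a filter on the dimmest class, an offset of 50, averaged probe sets, a trended or robust prior, side as a replicate block, and without any 1 array of days 0, 5, 7, 10 or 14. The block gave 6696 calls, 4139 higher and 2557 lower. Deviations of the same side correlated between -0.583 and 0.438 over pairs of days, so no common offset of a side ran through all days. These values cannot show whether the right and left pools of a day share animals. Leaving out 1 array at a time gave 4659 to 6999 calls, 2864 to 4339 higher and 1795 to 2660 lower, the lowest without the right pool of day 3. Leaving out a pool of day 1 or 3 takes the spread of that day from the other days. With only the 4 arrays of days 1 and 3 there were 5023 calls. A 2-fold minimum kept 714 (405 higher, 309 lower), and limma's treat test against 1.5-fold called 680 (406 higher, 274 lower), fewer by construction. Over all 35556 probe sets 5293 were higher and 4769 lower. The share of calls that were higher was 61.9%, 53.3% under quantile normalization and 57.2% with equal medians. No called change among the 222 named genes was reversed under these settings, all probe sets aside. Among them 10 calls were lost under quantile normalization, 13 with only the arrays of days 1 and 3, and between 10 and 18 without 1 pool of day 1 or 3. Genes in the dimmest class, where 795 of the 6920 calls lie, have the least signal to read a change from. The causes of these shifts were not tested.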

Other observations

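Cholesterol synthesis genes rose in 1 of 16 (6.25%) and fell in 2 (12.5%), against 21.5% and 13.2% of all genes. The mevalonate kinase gene Mvk had a difference of 0.44 ± 0.09. Without the right pool of day 1 the count higher was 5. The count lower was 4 when the left one of the day 1 pools was left out, and 0 when the right one of day 3 was. Cytosolic tRNA synthetases rose in 3 of 18 (16.7%) and fell in 5 (27.8%), against 21.5% and 13.2% of all genes. The valine enzyme Vars had 0.54 ± 0.08 and the serine enzyme Sars -0.50 ± 0.06 by limma. Without the right pool of day 1 the count lower was 2, and without the left pool of day 3 it was 3. The count higher was 1 without the left pool of day 1 or the right pool of day 3. Adipocyte genes rose in 2 of 14 and fell in 2 (14.3% each), against 21.5% and 13.2% of all genes. The triglyceride-making enzyme Dgat2 had a difference of -0.71 ± 0.09.

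Mast cell and eosinophil markers rose in 2 of 13 and fell in 1, and 1 was higher without the right pool of day 1 and 0 when any one of the other 3 pools was left out. The count lower was 2 without the right pool of day 1 and 3 without the left. With all pools the shares of this list were 15.4% higher and 7.69% lower, against 21.5% and 13.2% of all genes. The gene that fell was Hdc, which makes histamine and is also made by neutrophils, with 8.66 and 8.60 at day 3, against 9.90 and 10.56 at day 1 (-1.60 ± 0.18). Of 4 red cell genes 0 were called by limma, and 2 were lower without the left pool of day 1. The one with the largest difference was the anion exchanger Slc4a1, with 8.58 and 8.92 at day 3, against 10.29 and 8.83 at day 1 (-0.81 ± 0.51, limma adjusted p = 0.249). Its right pool of day 1 stood above the other pools of both days. The hepatocyte gene Alb, at 13.09 and 13.57 log2 intensity at day 3, against 14.00 and 13.33 at day 1, also differed between pools of the same day, and the source of its transcript was not tested.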
